A study of Homo sapiens with 12 samples.

Results

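DNA replication copies the genome once in each cell cycle, and the genes described here encode the proteins that do it and the enzymes that supply its building blocks. The set holds 59 genes, chosen by name for their place in DNA replication or nucleotide supply, each read from its brightest probe set on the array. All 59 were bright enough to test (log2 value above 4 on at least 3 arrays), among 10907 genes tested in all. They were grouped by role into origin recognition and licensing (9 genes), the MCM helicase and its relatives (8), origin firing (7), the sliding clamp and its loader (6), replicative polymerases and primase (10), single-strand binding and flap removal (4), nucleotide supply (5), replication-coupled chromatin assembly (3), E2F transcription factors (4) and fork protection (3).

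The cells were HK-2, an immortalised epithelial line from the proximal tubule of a human kidney, and each of the 12 arrays holds RNA from 1 biological replicate. The 4 groups of 3 arrays were vehicle control at 24 h, Nnm, a compound given at low dose, at 24 h, vehicle control at 48 h, and Nnm, again at low dose, at 48 h. The labels give neither the amount nor the full name of Nnm. All cells had the same medium, with epidermal growth factor, hydrocortisone, insulin, transferrin and selenite, and were seeded 24 h before treatment, which began at about 90% confluency. The series belongs to a survey of compounds for expression patterns of kidney toxicity, and the comparisons ask how these genes differ with Nnm at each time and how they move with time in each treatment.

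HK-2 is a single line, made by transferring papillomavirus genes into kidney cells. Their E7 protein binds RB, the protein that holds E2F factors in check, which limits the line as a model of replication control. Of 11 proximal tubule markers only DPP4 passed the filter, and the megalin gene LRP2, the cubilin gene CUBN, AQP1 and SLC34A1 had group means of 2.09 to 2.99, below the filter. Of 8 epithelial markers 7 passed, as did 3 of 7 fibroblast markers (COL1A1, DCN and LUM) and 1 of 5 endothelial markers (PECAM1, at 4.05 to 4.50). The leukocyte markers PTPRC, CD3E and LYZ did not pass. No cell counts come with the arrays, so fewer replicating cells and less RNA per cell cannot be told apart.

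The Nnm arrays of replicate 2 stood apart. On the first principal component (50.3% of the variance) they lay at -1.55 and -3.28, while controls lay at 18.6 to 34.4 and the remaining Nnm arrays between -43.2 and -31.2. Replicate 2 arrays of every group also had the lowest ACTB 5′ minus 3′ difference, a sign of RNA quality, at -1.17 to -1.09 against -0.86 to -0.74 elsewhere. Counts are therefore given with and without the 2 Nnm arrays of replicate 2. The control arrays of replicate 2 stayed in those fits. Arrays with the same replicate number deviated together across groups, so counts are also given with the number as a block, a term that compares arrays within a number.

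Before a cell can replicate, the origin recognition complex, CDC6 and CDT1 load the MCM helicase onto DNA. At the start of S phase a kinase, CDC45 and the GINS complex switch that helicase on, and polymerases, clamps and nucleotide enzymes then build the new strands. Many of these genes are targets of E2F factors, which act at the change from G1 to S phase, while genes of mitosis tend to carry CCAAT boxes and the CHR element.

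To set the members' promoters beside these motifs, sequences were taken from RefSeq (GRCh38.p14), from 250 bases before to 50 bases after each listed start. The table held 52 of the 59 genes, with 72 promoters. GINS4, RPA3, MCM5, E2F8, POLD3, RPA2 and MCM4 were not among them. The E2F words searched on both strands were TTTGGCGC, TTTCCCGC, TTTGCCGC and TTTCGCGC, none of which contains CCAAT or TTTGAA. They occurred in 27 of the 72 promoters (37.5%), in 5.11% of the promoters of all genes tested and in 3.31% of all 35116 promoters listed. CCAAT was found in 38 of the 72 (52.8%), in 35.3% of the promoters of all genes tested and in 34.6% of all promoters. The CHR word TTTGAA was found in 4 of the 72 (5.56%), in 10.4% for all genes tested and in 15.2% of all promoters. A match is a run of letters and not a measured site.

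The following stretches of 120 bases, written 5′ to 3′ along the gene, are from genes that passed the test with Nnm, and were picked after their values were seen. In the first set capitals mark an E2F word or its reverse complement (GCGGGAAA is that of TTTCCCGC). These are CDT1 at chr16:88803669-88803788 (plus strand), POLA2 at chr11:65261842-65261961 (plus), TYMS at chr18:657533-657652 (plus) and 1 of the 3 listed promoters of UHRF1 at chr19:4909381-4909500 (plus), each ending at the base before the start.
CDT1: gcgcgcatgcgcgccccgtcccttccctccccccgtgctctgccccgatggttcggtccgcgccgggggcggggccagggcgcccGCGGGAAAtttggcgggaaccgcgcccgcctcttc
POLA2: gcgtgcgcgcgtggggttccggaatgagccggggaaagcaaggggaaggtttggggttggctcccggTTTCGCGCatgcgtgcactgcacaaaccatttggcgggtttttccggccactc
TYMS: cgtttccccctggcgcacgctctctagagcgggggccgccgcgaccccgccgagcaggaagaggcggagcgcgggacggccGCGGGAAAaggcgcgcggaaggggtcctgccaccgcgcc
UHRF1: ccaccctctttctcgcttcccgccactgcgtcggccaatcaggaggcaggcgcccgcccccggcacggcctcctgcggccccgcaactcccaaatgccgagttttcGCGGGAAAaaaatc
In the second set none of the 4 E2F words was found in the window, and capitals mark CCAAT or its reverse complement ATTGG. These are ORC1 at chr1:52404424-52404543 (minus strand), MCM10 at chr10:13161395-13161514 (plus) and E2F7 at chr12:77065570-77065689 (minus). The MCM10 stretch lies 163 to 44 bases before the start, and the others end at the base before it. The 2 sets do not divide the motifs by time of the call. GINS3, which passed at 48 h and is not printed, had an E2F word and no CCAAT, and the UHRF1 stretch also holds an unmarked CCAAT.
ORC1: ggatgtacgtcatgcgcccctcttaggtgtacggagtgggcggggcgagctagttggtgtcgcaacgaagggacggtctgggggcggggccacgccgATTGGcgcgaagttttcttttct
MCM10: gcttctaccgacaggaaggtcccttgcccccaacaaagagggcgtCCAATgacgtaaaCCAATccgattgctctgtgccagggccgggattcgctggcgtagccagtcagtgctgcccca
E2F7: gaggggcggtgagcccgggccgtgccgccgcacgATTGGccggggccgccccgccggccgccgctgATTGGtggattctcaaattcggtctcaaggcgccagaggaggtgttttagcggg

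With Nnm, few of the 59 genes passed the test at either time, mostly downward at 24 h and upward at 48 h. At 24 h POLA2, MCM4, UHRF1 and TYMS fell and CDT1 rose. At 48 h E2F7, MCM10, ORC1, E2F8, CHAF1A, POLD3, RFC5 and GINS3 rose and none fell. All changes are log2 differences between group means, in which 1 unit is a 2-fold change, with limma's standard error (SE) and a Benjamini-Hochberg adjusted p over all genes, called below 0.05.

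The 5 genes called at 24 h compare with 19.4% of all genes tested. By direction, 6.78% of the 59 fell and 1.69% rose, against 8.85% and 10.6% of all genes, so both shares lay below the background. The median change was -0.14 (0.01 over all genes), 46 of the 59 changes were below 0, and the groups did not overlap for 13 genes that were lower and 3 that were higher (18.7% and 21.1% of all genes). With the replicate block 15 fell and 1 rose (18.8% and 20% of all genes), and without the 2 Nnm arrays of replicate 2 the counts were 16 and 2. In either direction those 18 genes are 30.5% of the set, where the same fit called 34% of all genes. For this fit the shares of all genes that fell and rose were not computed, so the 16 falls have no background of their own. The 5 calls at 24 h all failed without Nnm 24 h replicate 1 or 3 or without control 24 h replicate 1 or 3. In that order, those fits called 0 genes of the set and 5.65%, 4.92%, 8.54% and 3.7% of all genes. Without Nnm 24 h replicate 2 there were 16 (29.8% of all genes). Without Nnm 48 h replicate 3 or control 48 h replicate 1 the count was 2. Without control 48 h replicate 2 or 3 it was 3. The fits without these 48 h arrays called 15.8% to 16.9% of all genes.

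At 48 h the 8 rises were 13.6% of the 59 genes, where 8.45% of all genes rose, and 0 falls compare with 5.34%. In either direction 13.8% of all genes were called, so the total share was near the background. The median change was 0.20 (0.02 over all genes), 44 of the 59 changes were above 0, and the groups did not overlap for 24 genes that were higher and 1 that was lower (20.3% and 15.8% of all genes). With the replicate block 18 rose and 0 fell (18.5% and 13.7% of all genes). Without the 2 Nnm arrays of replicate 2, 14 rose and 1 fell. In either direction these are 25.4% of the set against 28.9% of all genes. A share of all genes for the rises alone was not computed for this fit. None of the 8 rises was called without Nnm 48 h replicate 1 or 3 (2.45% and 3.49% of all genes were). The count was 1 without control 48 h replicate 1 and 3 without control 48 h replicate 2 (3.55% and 8.14% of all genes). It was 4, or 6.78% of the set, without control 48 h replicate 3 or control 24 h replicate 1 (3.84% and 10.2%).

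**Figure D1:**
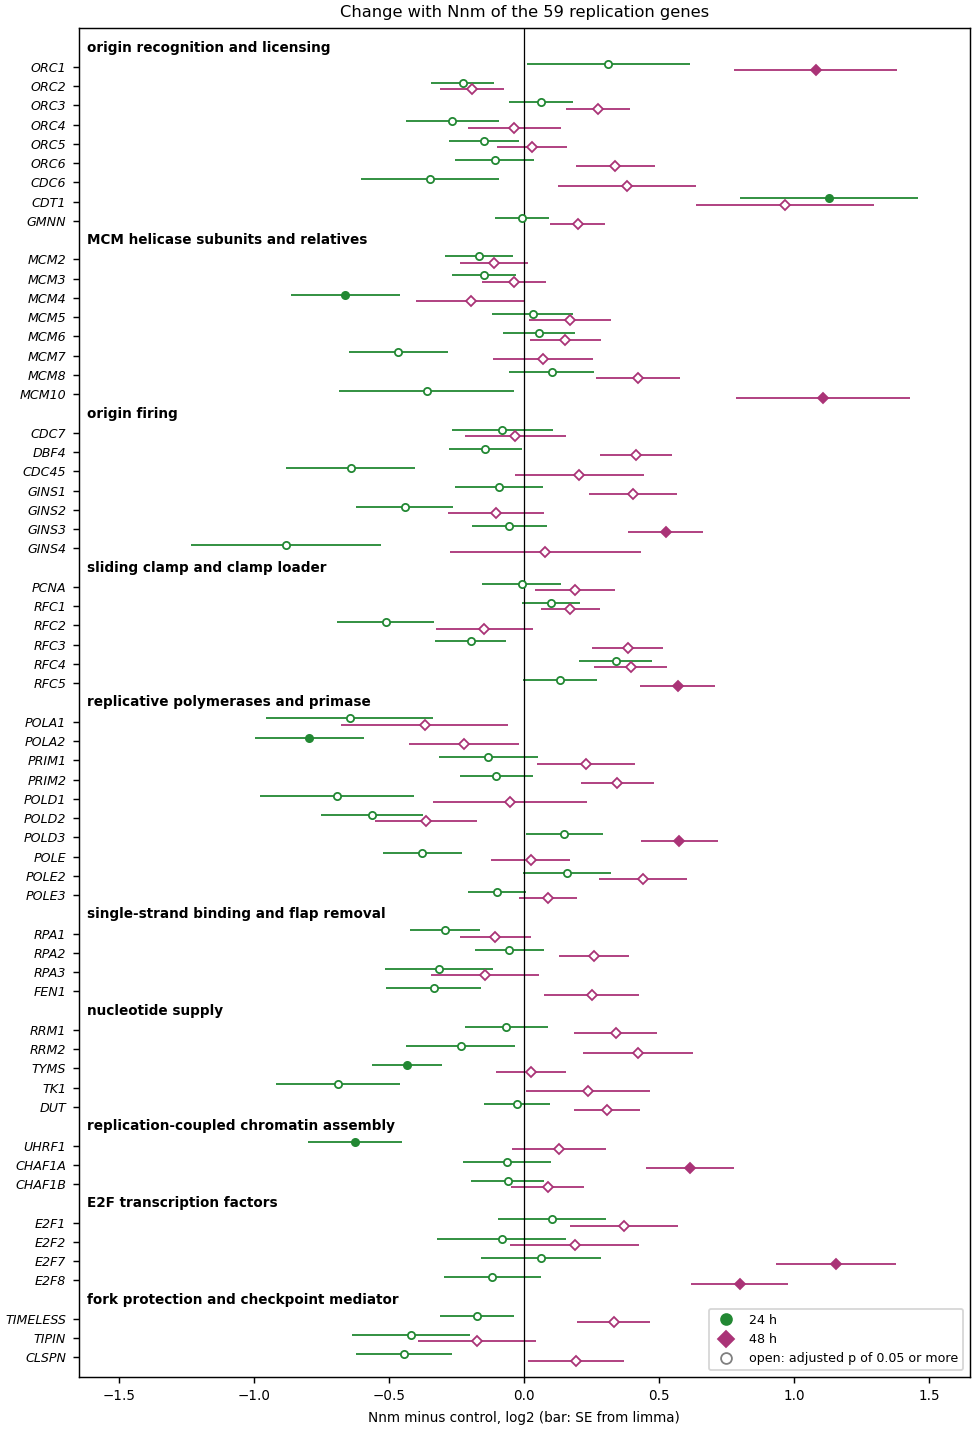
Nnm minus control (log2, horizontal axis) for each of the 59 genes, grouped by role, at 24 h (circles) and 48 h (diamonds), with limma's SE as bars and filled symbols for an adjusted p under 0.05. At 24 h 46 of the 59 circles lie below 0, and at 48 h 44 of the 59 diamonds lie above it.

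In origin recognition and licensing, ORC1 and CDT1 were the genes called. ORC1 encodes the largest subunit of the complex that marks origins. Its log2 values at 24 h were 8.65, 8.56 and 8.54 in control and 8.83, 8.90 and 8.95 with Nnm (replicates 1, 2 and 3 here and in all lists that follow). At 48 h they were 7.26, 7.47 and 8.19 in control and 9.16, 7.96 and 9.04 with Nnm. The Nnm values were all above the control values at 24 h, by little, whereas at 48 h Nnm replicate 2 lay below control replicate 3. ORC1 rose by 1.08 at 48 h (SE 0.30, adjusted p = 0.0403) and differed by 0.31 at 24 h (SE 0.30, adjusted p = 0.485).

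CDT1 brings the helicase to the marked origin, and geminin (GMNN) blocks it. CDT1 was at 9.69, 9.41 and 9.20 in control and at 10.96, 10.19 and 10.54 with Nnm at 24 h. At 48 h the values were 9.88, 9.65 and 9.65 in control and 11.46, 9.90 and 10.72 with Nnm. Every Nnm value exceeded every control value of its time, least so in replicate 2. The change was 1.13 at 24 h (SE 0.33, adjusted p = 0.0384) and 0.97 at 48 h (adjusted p = 0.0734, or 0.014 with the block). A second CDT1 probe set was higher by 0.51 and 0.98, and the one used is of a type that can also bind related transcripts. GMNN differed by -0.01 and 0.20. Among the other 7 genes of this group the changes ran from -0.35 (CDC6) to 0.06 (ORC3) at 24 h and from -0.19 (ORC2) to 0.38 (CDC6) at 48 h, and ORC3 and ORC6 passed at 48 h with the block alone (adjusted p = 0.049 and 0.0383).

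Of the MCM genes, MCM4 fell at 24 h and MCM10 rose at 48 h. MCM4 is a subunit of the ring that unwinds DNA. It read 10.95, 10.81 and 10.79 in control and 9.74, 10.63 and 10.19 with Nnm at 24 h, and 10.26, 10.22 and 10.70 against 10.21, 10.13 and 10.24 at 48 h. The 24 h groups did not overlap, though Nnm replicate 2 was close to the controls, and the 48 h groups did. MCM4 fell by 0.66 at 24 h (SE 0.20, adjusted p = 0.0433), with a change of -0.20 at 48 h (adjusted p = 0.535). Its other 3 probe sets changed by -0.65, -0.56 and -0.27 at 24 h.

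MCM10 helps to switch on the loaded helicase. It was at 8.18, 8.33 and 8.63 in control and at 7.41, 8.37 and 8.27 with Nnm at 24 h. At 48 h it was at 6.57, 6.83 and 7.59 in control and at 8.12, 7.66 and 8.53 with Nnm. The 48 h control group had the lowest mean, and all 3 of its values lay below the Nnm values of that time, with control replicate 3 just under Nnm replicate 2. MCM10 rose by 1.11 at 48 h (SE 0.32, adjusted p = 0.0461), and its other probe sets were higher by 0.38 and 0.61. At 24 h the change was -0.36 (adjusted p = 0.448). MCM2, MCM3, MCM5 and MCM6, the ring's further subunits, changed by -0.17 to 0.05 at 24 h and by -0.11 to 0.17 at 48 h. MCM7 changed by -0.47 at 24 h and passed with the block alone (adjusted p = 0.0122), as did MCM8, a relative that acts in repair, with 0.42 at 48 h (adjusted p = 0.0372).

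Origin firing had 1 call. GINS3, a subunit of the GINS complex that joins the active helicase, was at 8.72, 8.73 and 8.78 in control and 8.44, 8.90 and 8.71 with Nnm at 24 h. At 48 h it read 7.96, 8.35 and 8.32 in control and 8.72, 8.65 and 8.82 with Nnm. The 48 h groups were apart and the 24 h groups overlapped. GINS3 rose by 0.52 at 48 h (SE 0.14, adjusted p = 0.034), with a change of -0.06 at 24 h, and its other probe set was higher by 0.42 at 48 h. All 7 genes of the group had changes below 0 at 24 h, from -0.88 (GINS4, adjusted p = 0.098) to -0.06. CDC45, the helicase cofactor, changed by -0.64 and GINS2 by -0.44 at 24 h, and both passed with the block alone (adjusted p = 0.0314 and 0.0251). DBF4, the activator of the CDC7 kinase, did so at 48 h with 0.41 (adjusted p = 0.0158), and CDC7 itself differed by -0.08 and -0.03.

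RFC subunits load PCNA, the ring that holds polymerases on DNA. RFC5 was at 10.80, 10.83 and 10.73 in control and 10.69, 11.13 and 10.94 with Nnm at 24 h, and at 10.29, 10.32 and 10.45 against 11.04, 10.67 and 11.06 at 48 h. All Nnm values were above the controls at 48 h alone. RFC5 rose by 0.57 at 48 h (SE 0.14, adjusted p = 0.0254). Of its other probe sets 1 was higher by 0.58 at 48 h and 1 differed by -0.14.

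RFC4 passed for the mean of both times. Its values were 11.85, 11.88 and 11.62 in control and 12.12, 12.09 and 12.17 with Nnm at 24 h, and 11.49, 11.55 and 11.59 against 12.20, 11.65 and 11.96 at 48 h. The groups were apart at both times. RFC4 was higher by 0.34 at 24 h (adjusted p = 0.0964) and 0.40 at 48 h (adjusted p = 0.0733, or 0.0466 with the block), a mean of 0.37 (SE 0.10, adjusted p = 0.0133). PCNA changed by -0.01 and 0.19. RFC2 at 24 h (-0.51) and RFC3 at 48 h (0.38) passed with the block alone, at adjusted p = 0.0196 and 0.0212.

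Polymerase alpha and primase start each new strand, polymerase epsilon extends the leading strand and polymerase delta the lagging one. POLA2, the second subunit of polymerase alpha, was at 8.13, 8.06 and 8.22 in control and at 6.82, 7.75 and 7.45 with Nnm at 24 h. At 48 h it was at 7.35, 7.22 and 7.67 in control and 7.17, 7.18 and 7.22 with Nnm. The 24 h groups were apart, and by 48 h the controls lay near the Nnm level. POLA2 fell by 0.80 at 24 h (SE 0.20, adjusted p = 0.0242), with a change of -0.22 at 48 h. A second, dim probe set of POLA2 differed by 0.07 at 24 h.

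Subunits of polymerase delta moved in opposite directions. POLD3 was at 8.71, 8.70 and 8.55 in control and 8.63, 9.13 and 8.64 with Nnm at 24 h, and at 8.19, 8.42 and 8.51 against 8.93, 8.91 and 9.01 at 48 h. The groups were apart at 48 h and POLD3 rose by 0.57 (SE 0.14, adjusted p = 0.0274), while a dim second probe set differed by -0.23. POLD2 was at 10.98, 10.44 and 11.23 in control and 10.25, 10.39 and 10.31 with Nnm at 24 h, and at 10.74, 10.33 and 10.84 against 10.25, 10.25 and 10.32 at 48 h. Its Nnm values lay below all controls of their time, with control replicate 2 the lowest control both times. POLD2 fell by 0.46 in the mean of both times (SE 0.13, adjusted p = 0.0205), with changes of -0.56 at 24 h (adjusted p = 0.0596, or 0.0219 with the block) and -0.37 at 48 h. With the block alone POLA1 (-0.65, adjusted p = 0.0305) and POLD1 (-0.69, adjusted p = 0.00941) also passed at 24 h, and PRIM2 (0.34, adjusted p = 0.0294) and POLE2 (0.44, adjusted p = 0.0262) at 48 h.

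**Figure D2:**
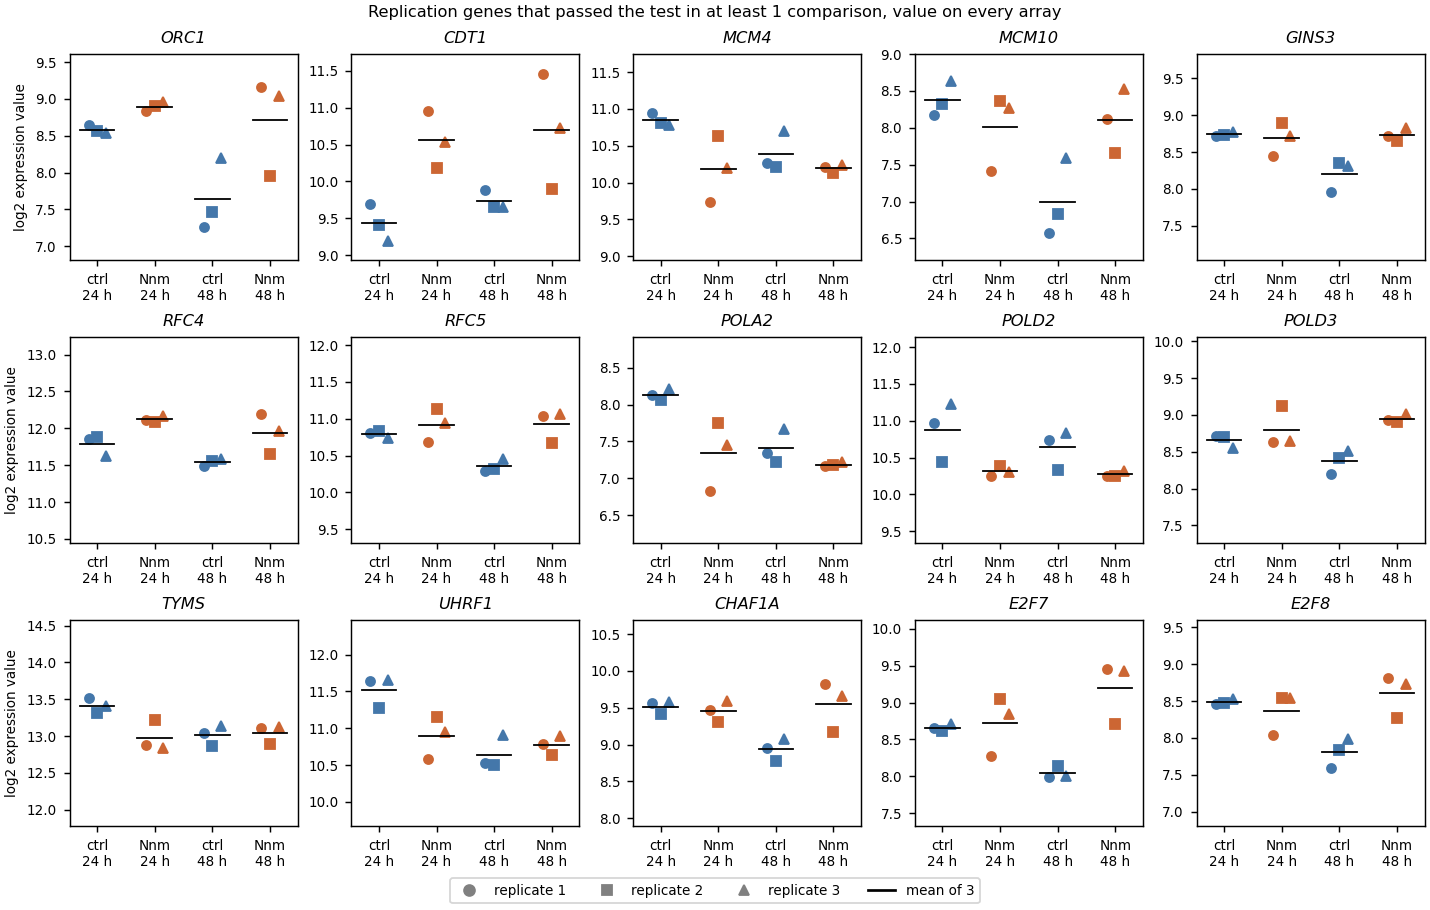
Log2 expression value on every array (vertical axis) for the 15 genes called in at least 1 comparison, by group, with a symbol per replicate number and a line at the mean of 3; all panels span the same number of log2 units. E2F7 and E2F8 show every 48 h control value below those of the other groups, and in POLA2, MCM4 and TYMS the 24 h control group is the highest.

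None of the 4 genes for single-strand binding and flap removal was called. The one with the smallest p for the mean, RPA1, encodes the large subunit of the protein that coats single-stranded DNA. It was at 12.35, 12.39 and 12.37 in control and 11.85, 12.33 and 12.05 with Nnm at 24 h, and at 12.03, 12.19 and 12.21 against 11.89, 12.16 and 12.07 at 48 h. The 24 h groups were narrowly apart. RPA1 differed by -0.29 at 24 h (SE 0.13, adjusted p = 0.127, or 0.0375 with the block). FEN1, the nuclease that trims flaps between lagging-strand fragments, differed by -0.34 at 24 h and 0.25 at 48 h.

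In nucleotide supply TYMS was called at 24 h. It encodes thymidylate synthase, which makes the DNA base thymine's nucleotide. TYMS was at 13.52, 13.31 and 13.41 in control and at 12.88, 13.22 and 12.84 with Nnm at 24 h, and at 13.04, 12.87 and 13.14 against 13.11, 12.89 and 13.12 at 48 h. The groups were apart at 24 h and alike at 48 h. TYMS fell by 0.43 (SE 0.13, adjusted p = 0.0412), a second probe set differed by -0.59, and the 48 h change was 0.03 (95% interval -0.26 to 0.31). On the probe sets used, all 5 genes had changes below 0 at 24 h and above 0 at 48 h. A second bright probe set of RRM2 differed by 0.05 at 24 h and by 0.93 at 48 h. TK1, thymidine kinase of the salvage route, differed by -0.69 at 24 h (adjusted p = 0.0308 with the block) and by 0.24 at 48 h. RRM1, the large subunit of ribonucleotide reductase, differed by -0.07 and 0.34 (adjusted p at 48 h 0.0491 with the block). RRM2, its small subunit, differed by -0.24 and 0.42, and DUT, which removes dUTP, by -0.03 and 0.31. Of the other DUT probe sets 1 differed by -0.07 and 0.33, and a dimmer 1 by -0.60 and 0.37. The DUT probe set used is, like that of CDT1, of a type that can also bind related transcripts.

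UHRF1 guides DNA methylation of the new strand. It was at 11.64, 11.27 and 11.65 in control and at 10.59, 11.15 and 10.94 with Nnm at 24 h, and at 10.52, 10.50 and 10.91 against 10.79, 10.63 and 10.89 at 48 h. The 24 h controls stood above every other array. UHRF1 fell by 0.63 at 24 h (SE 0.17, adjusted p = 0.0323), with a change of 0.13 at 48 h. CHAF1A, the large subunit of the factor that places histones behind the fork, was at 9.56, 9.41 and 9.58 in control and 9.46, 9.30 and 9.60 with Nnm at 24 h, and at 8.96, 8.77 and 9.07 against 9.82, 9.17 and 9.66 at 48 h. Here the 48 h controls stood below every other array. CHAF1A rose by 0.61 at 48 h (SE 0.16, adjusted p = 0.0343), its other probe sets were higher by 0.50 and 0.36, and its partner CHAF1B differed by 0.09.

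E2F7 and E2F8 encode the atypical E2F factors, which repress E2F targets late in the cycle. E2F7 was at 8.65, 8.62 and 8.71 in control and at 8.27, 9.05 and 8.84 with Nnm at 24 h. At 48 h it was at 7.997, 8.135 and 8.003 in control and 9.45, 8.71 and 9.43 with Nnm. The 48 h groups were well apart, with Nnm replicate 2 nearest the controls. E2F7 rose by 1.15 at 48 h (SE 0.22, adjusted p = 0.0124), and its dimmer second probe set was higher by 0.18. E2F8 was at 8.46, 8.48 and 8.53 in control and 8.04, 8.54 and 8.54 with Nnm at 24 h, and at 7.59, 7.84 and 7.98 against 8.82, 8.26 and 8.73 at 48 h. It rose by 0.80 at 48 h (SE 0.18, adjusted p = 0.0191) with no overlap. The 24 h changes were 0.06 for E2F7 and -0.12 for E2F8. E2F1 and E2F2, activators of S phase genes, differed by 0.37 and 0.19 at 48 h, without passing.

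None of the 3 fork protection genes was called. TIPIN, which with TIMELESS steadies the fork, was at 8.60, 8.93 and 9.04 in control and 7.96, 8.78 and 8.57 with Nnm at 24 h, and at 8.07, 8.46 and 8.50 against 7.91, 8.36 and 8.24 at 48 h. Its groups overlapped at both times, yet each Nnm array was below the control of its number. TIPIN differed by -0.42 at 24 h (SE 0.22, adjusted p = 0.191, or 0.0142 with the block) and by -0.18 at 48 h. CLSPN, the mediator that passes the stress signal to the kinase CHEK1, differed by -0.45 at 24 h (adjusted p = 0.0439 with the block) and by 0.19 at 48 h. CLSPN was dim, at 4.25 to 5.41 over the arrays, near the filter, and its other probe sets did not pass the filter.

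For the mean of both Nnm effects 9 of the 59 genes were called, against 37.3% of all genes. Rises were 6 of the 59 and falls 3, against 20.4% and 16.9% of all genes. The rises were CDT1 (1.05), ORC1 (0.70), E2F7 (0.61), RFC4 (0.37), POLD3 (0.36) and RFC5 (0.35), and the falls POLA2 (-0.51), POLD2 (-0.46) and MCM4 (-0.43). With the block 11 rose and 10 fell (28% and 24.6% of all genes), and 12 genes passed with it alone. These were MCM8, GINS3, POLE2, CHAF1A and E2F8, which were higher, and ORC2, GINS2, RFC2, POLA1, POLD1, RPA1 and TIPIN, which were lower. CDT1, E2F7, RFC4, POLD3, RFC5 and POLA2 were called without any 1 of the 12 arrays, but POLD3, RFC5 and POLA2 were not called when a gene's probe sets were averaged (adjusted p = 0.302, 0.099 and 0.164). By contrast POLD2 was lost without control 48 h replicate 3, ORC1 without replicate 3 of either 24 h group, replicate 1 of either 48 h group, replicate 2 of the 48 h control or replicate 3 of Nnm at 48 h, and MCM4 without each array other than Nnm 24 h replicate 2 and control 48 h replicates 1 and 2. The ORC1 call was also lost with no filter, and the MCM4 call with no filter and with probe sets averaged. Without Nnm 24 h replicate 2 the count was 17 (28.8% of the set against 42.1% of all genes). Without both Nnm arrays of replicate 2 the count was 19 (32.2% against 46.7%).

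In the control cells nearly all of the set was lower at 48 h than at 24 h. From 24 h to 48 h the mean of 56 of the 59 genes was lower, with a median of -0.34, where 53.0% of all genes were lower and the median was -0.02. CDT1 (0.30), PRIM1 (0.11) and CDC7 (0.06) were the exceptions. The largest differences were those of MCM10 (-1.38, SE 0.32), GINS4 (-1.20), CDC6 (-0.96) and CDC45 (-0.96). GINS4 read 7.65, 6.99 and 7.12 at 24 h and 5.27, 6.29 and 6.61 at 48 h, and CDC6 read 9.15, 9.30 and 9.66 and then 7.997, 8.357 and 8.868. In both genes every 48 h control lay below every 24 h control. The same held for 42 of the 59 genes, against 14.2% of all genes, and 0 genes of the set were apart the other way (12.1%).

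By limma 0 of the 59 genes were called between the control groups (0.128% of all genes were), the lowest adjusted p being 0.0979 for UHRF1, and 27 had an unadjusted p under 0.05 (15.7% of all genes). With the replicate block 15 fell and 0 rose (4.6% and 3.87% of all genes), namely CDC6, MCM10, ORC6, CLSPN, UHRF1, CHAF1A, TIPIN, CDC45, RFC3, GINS3, MCM7, E2F8, DBF4, POLA2 and TIMELESS, with adjusted p from 0.00838 to 0.0499. Within replicates 1, 2 and 3 the median difference was -0.50, -0.33 and -0.25, and 52 genes were lower in all 3. Of all genes 55.5%, 51.9% and 50.7% were lower in these replicates. With the block and without replicate 1 or 3 the count was 0 (0% of all genes), and without replicate 2 it was 14 (8.65%).

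In the Nnm cells the set did not share a direction over time. From 24 h to 48 h 33 genes were higher and 26 lower, with a median of 0.02 (0.00 for all genes), from -0.27 (TIPIN) to 0.48 (E2F7). In 0 of the 59 genes were the groups apart, against 12.7% of all genes. The replicates disagreed, since the median was 0.30 in replicate 1, -0.23 in replicate 2 and 0.05 in replicate 3, and 52, 6 and 33 genes were higher in them. Limma called 0 genes of the set, without and with the block (0.119% and 2.29% of all genes). Of the set 1 gene, PRIM1, the catalytic subunit of primase, had an unadjusted p under 0.05 (10.8% of all genes did). Without both Nnm arrays of replicate 2 the median was 0.18. That fit called 2 genes of the set (3.39%) and 2.26% of all genes.

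**Figure D3:**
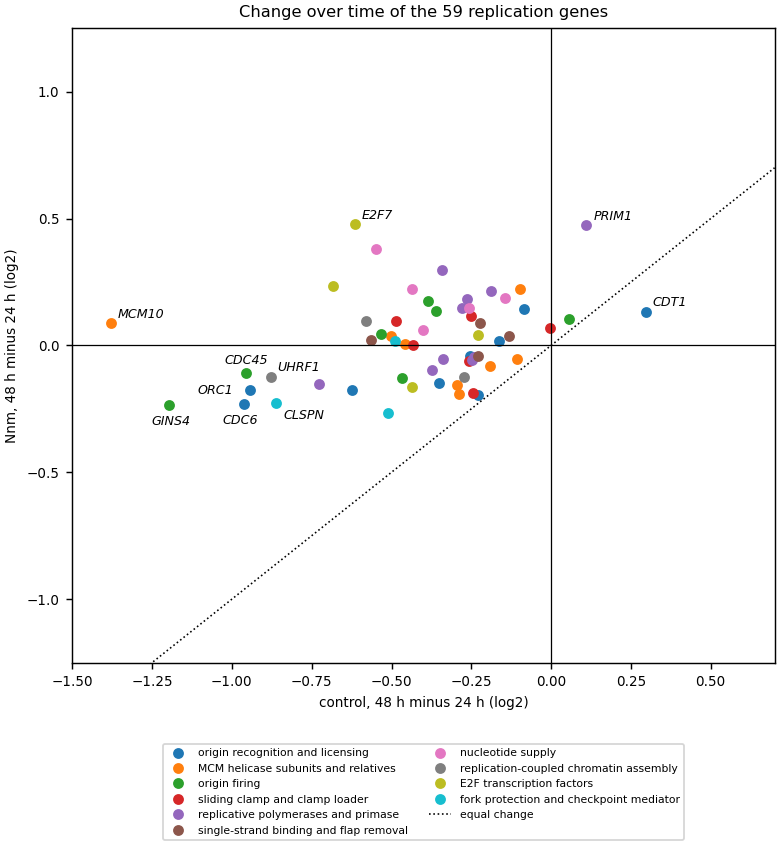
Change from 24 h to 48 h (log2) in control cells (horizontal axis) against that in Nnm cells (vertical axis) for the 59 genes, coloured by role, with a dotted line where both are equal. All but 3 genes lie left of 0, from -1.38 to 0.30, and the vertical spread is narrower, from -0.27 to 0.48.

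The difference between the Nnm effects at 48 h and 24 h is the same number as the change over time with Nnm minus that in control, so it adds no separate evidence. It was above 0 for 58 of the 59 genes, all but CDT1 (-0.16), with a median of 0.37 (0.01 over all genes). Limma called 0 genes of the set and 0% of all genes, and 17 of the 59 had an unadjusted p under 0.05 against 6.40% of all genes. The lowest adjusted p was 0.696, and 0.175 with the block, which called 0 of the set and 0.0183% of all genes. E2F7 had a difference of 1.09 (95% interval 0.40 to 1.79) and MCM10 one of 1.47 (0.46 to 2.48). These intervals are for single genes, are not adjusted for the number of genes tested, and neither gene passed. The comparisons of this report share arrays, in that the control time comparison uses the same control arrays as the Nnm effect at each time.

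Within replicate numbers the Nnm effect at 24 h had medians of -0.42, 0.06 and -0.12 over the 59 genes, with 54, 22 and 36 genes lower. At 48 h the medians were 0.32, 0.14 and 0.14, with 43, 44 and 38 genes higher, and 31 genes were higher in all 3. At 24 h 19 genes were lower in all 3. The sign of the median was thus shared by the 3 replicates at 48 h, while at 24 h replicate 2 differed from replicates 1 and 3. Of all genes 49.6%, 47.5% and 49.0% were lower in replicates 1, 2 and 3 at 24 h, and 47.3%, 46.5% and 51.2% at 48 h. The share of all genes that kept 1 direction in all 3 replicates was not computed.

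**Figure D4:**
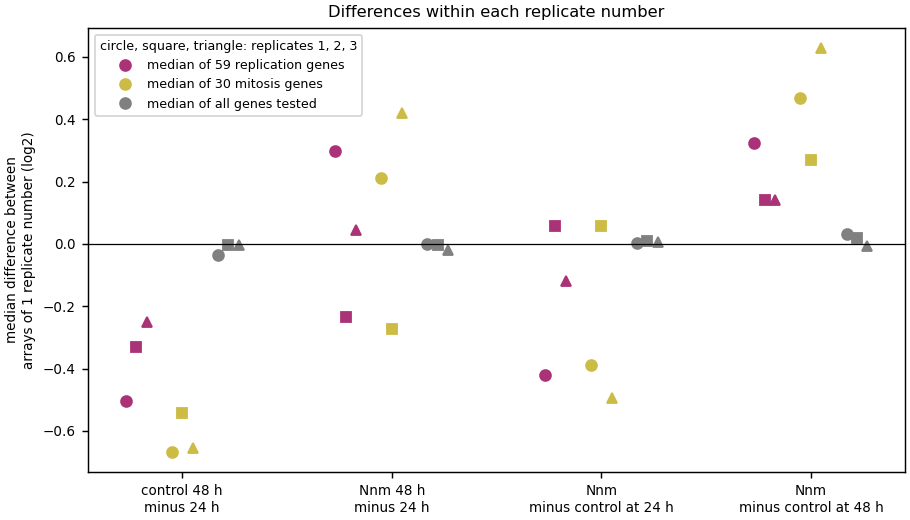
Median log2 difference between arrays of the same replicate number (vertical axis) for the 59 replication genes, 30 mitosis genes and all genes tested, with circle, square and triangle for replicates 1, 2 and 3. The replication median is below 0 in all 3 replicates for control time (-0.50, -0.33 and -0.25) and changes sign between replicates for Nnm time (0.30, -0.23 and 0.05).

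Genes of the same pathway outside the set gave a varied picture. Of 26 further replication factors tested, 2 rose and 2 fell at 24 h (7.69% each, against 10.6% and 8.85% of all genes), and 3 rose and 0 fell at 48 h (11.5% and 0%, against 8.45% and 5.34%). MCM9, the partner of MCM8, rose by 0.98 (SE 0.26, adjusted p = 0.0263) and 0.90 (adjusted p = 0.0422), from 7.60, 7.37 and 7.39 to 8.49, 7.97 and 8.83 at 24 h. POLD4, the smallest subunit of polymerase delta, rose by 0.83 at 24 h. TOPBP1, an activator of origin firing, rose by 0.30 in the mean of both times, and ASF1A, a histone chaperone, fell by 0.38. All 26 were lower at 48 h than at 24 h in control cells, with a median of -0.28.

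Of 27 nucleotide synthesis genes outside the set, 12 fell and 1 rose at 24 h (44.4% and 3.70%, against 8.85% and 10.6% of all genes), with a median of -0.47. At 48 h 3 fell and 0 rose (11.1% and 0%, against 5.34% and 8.45%). NME1, a nucleoside diphosphate kinase, fell by 1.10 at 24 h (SE 0.24, adjusted p = 0.0158) and changed by -1.04 at 48 h (adjusted p = 0.0225). Its values were 12.25, 12.10 and 12.43 in control and 10.70, 11.34 and 11.45 with Nnm at 24 h, with no overlap. DCTPP1, which clears dCTP, fell by 0.96 and 0.74, CTPS1, CTP synthase, by 0.85 and 0.69, and PRPS1, which makes the ribose phosphate precursor, by 0.49 at 24 h. The 5 nucleotide supply genes of the set had a median of -0.24 at 24 h, with 1 called. The difference between these lists was not tested.

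Of 23 regulators of the G1 to S change, 1 rose and 3 fell at 24 h, and 3 rose and 4 fell at 48 h. CCND2, cyclin D2, fell by 1.88 (SE 0.42, adjusted p = 0.0156) and 2.10 (adjusted p = 0.0136), from 10.72, 10.24 and 11.21 to 8.17, 9.25 and 9.10 at 24 h. CDK4, its kinase partner, fell by 0.75 and 0.52. CDKN1B, the inhibitor p27, rose by 0.63 and 0.83, and CDKN2A, whose product p16 inhibits CDK4, fell by 0.56 at both times. In either direction 17.4% of this list was called at 24 h and 30.4% at 48 h, against 19.4% and 13.8% of all genes.

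Among 14 genes of the replication stress checkpoint, 0 were called at 24 h (19.4% of all genes were) and 2 rose at 48 h (14.3%, against 8.45%). WEE1, the kinase that restrains CDK1 and CDK2, rose by 0.65 at 48 h (SE 0.14, adjusted p = 0.0159). In the mean of both times RAD1, part of the checkpoint clamp, rose by 0.34, BRCA1, which acts in recombination, by 0.45, and the kinase gene ATR fell by 0.50. The calls of BRCA1 and ATR were lost with no filter, and of the 12 fits that left out 1 array only 5 and 3 kept them.

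Mitosis follows replication in the cell cycle, and its genes mark dividing cells. Of 30 mitosis genes, 0 rose and 4 fell at 24 h (13.3% fell, against 8.85% of all genes), and 8 rose and 0 fell at 48 h (26.7% rose, against 8.45%). TOP2A, the topoisomerase that untangles chromosomes, rose by 0.80 at 48 h (SE 0.15, adjusted p = 0.0117), CENPE, a kinetochore motor, by 0.67 and NUSAP1, a spindle protein, by 0.53, while PRC1, an organiser of the central spindle, fell by 0.84 at 24 h. Between the control times all 30 were lower, with no overlap in any of the 30 (14.2% of all genes) and a median of -0.63, and in the Nnm cells 24 were higher with a median of 0.11. For the genes named outside the set, the calls at a single time were kept in 3 (CTPS1 at 48 h) to 12 of the 12 fits without 1 array, and the 48 h calls of CENPE and MCM9 in 4. The part of a shift in cycling cells in the changes of the 59 genes was not tested.

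**Figure D5:**
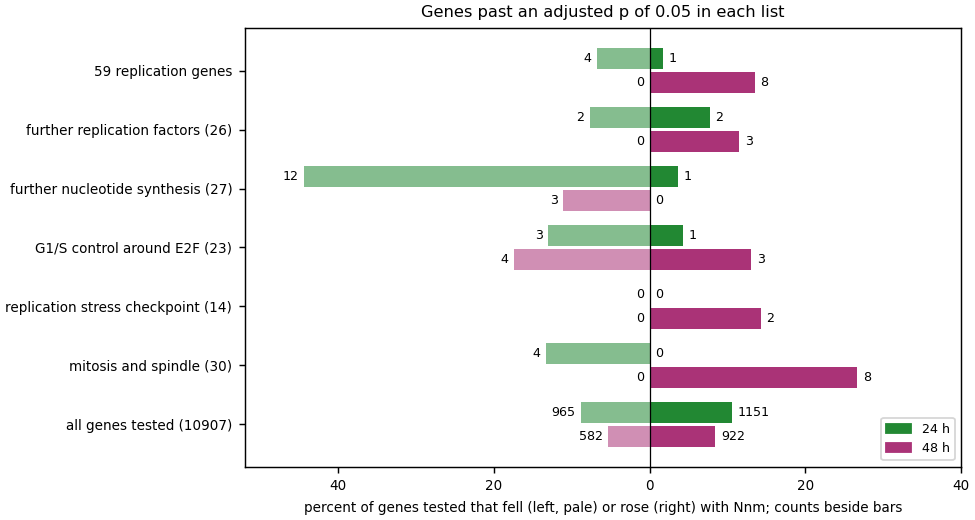
Percent of the genes tested in each list that fell (left, pale) or rose (right) with Nnm at an adjusted p under 0.05, at 24 h and 48 h, with the number of genes beside each bar. The 59 replication genes show 4 falls and 1 rise at 24 h and 8 rises at 48 h, and further nucleotide synthesis shows 12 falls at 24 h.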

How the data were processed

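Biotin-labelled cRNA from total RNA was measured on Affymetrix arrays of 54675 probe sets, 1 per culture. The deposited values are on a log2 scale and were made by the authors with GCRMA, per the submitters' processing notes. No version, and no list of the arrays normalised together, is given in the sources used here. The log base was inferred from the values. Of the probe sets, 41097 had 1 gene symbol in the platform annotation, 1801 several and 11777 none listed there. A probe set was kept if 3 or more arrays had it over 4, and each gene was read from the one with the highest mean over the 12 arrays, giving 10907 genes.

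Tests used lmFit and eBayes of limma 3.58.1 (R 4.3.3) on the 12 arrays together, adjusted over all genes by Benjamini-Hochberg. The code was tested on simulated data. Residuals of arrays with the same replicate number in different groups correlated at 0.318 to 0.696 (18 pairs), and those of different numbers at -0.587 to 0.119, so the numbers pair the arrays. The labels do not say what a number shares. The members and lists were chosen with earlier results of these data known. Values on every array are given for each member called in any comparison and, in a role group without one, for the member whose mean Nnm effect had the smallest p. From each other list up to 4 called genes with the smallest such p are named. Members outside this, such as those at the ends of a range or passing with the block alone, were chosen after their values were seen. Of the 59 genes, 28 had several kept probe sets, which shared a direction in 21 at 24 h and in 21 at 48 h. Alternatives covered the filter, the probe set rule, normalisation, the variance model, pairing and leaving out arrays. Plots used matplotlib 3.10.9.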

Additional observations from a re-analysis of the deposited data

How the results depend on the processing

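With 1 array left out at a time, 0 to 16 of the 59 genes were called at 24 h and 0 to 11 at 48 h. The count was 7 to 17 for the mean of both times and 0 to 1 for Nnm time. For the difference between times and for control time it was 0. Of all genes these fits called 3.7% to 29.8% at 24 h, 2.45% to 22% at 48 h and 29.1% to 42.1% for the mean. They called 0% to 3.56% for Nnm time, 0% to 0.156% for the difference and 0.0275% to 0.248% for control time. At 24 h the count was 0 with no filter, 2 with a gene's probe sets averaged, 21 with array weights and 1 with only the groups compared (6.43%, 18.8%, 44.6% and 7.67% of all genes tested). At 48 h it was 4 with no filter and with probe sets averaged, 5 with quantile normalisation and with median centring, 18 with array weights and 1 with only the groups compared (4.45%, 13.5%, 13.3%, 13.3%, 31.8% and 4.71% of all genes). Array weights gave 26 for the mean, 2 for control time and 3 for Nnm time (53%, 0.843% and 9.12% of all genes). Blocking on the replicate number gave 16 at 24 h, 18 at 48 h, 21 for the mean and 15 for control time. The same fit called 38.8%, 32.2%, 52.6% and 8.47% of all genes. With the block within each time the count was 12 at 24 h and 16 for the mean (30.5% and 48% of all genes). Further alternatives were chosen after seeing the data. Without both Nnm arrays of replicate 2 the counts were 18 at 24 h, 15 at 48 h and 19 for the mean. The same fit called 34%, 28.9% and 46.7% of all genes. For the difference it called 1 (0.33% of all genes) and for Nnm time 2 (2.26%). The block without replicate 1, 2 or 3 gave 0, 25 and 0 at 24 h (0.0367%, 46.4% and 0% of all genes). It gave 0, 21 and 0 at 48 h (0.193%, 40.3% and 0.00917%), and 3, 28 and 1 for the mean (22.5%, 56.6% and 16.2%). The same fits gave 0, 8 and 0 for the difference and 0, 14 and 0 for control time. They gave 0, 4 and 0 for Nnm time. Without replicate 2 they called 3.04%, 8.65% and 11.3% of all genes, and without replicate 1 or 3 they called 0%. Other settings kept these counts within 1.5 times, and 0 of the 64 called single-gene results changed sign in any setting. Between the control times 55 to 57 of the 59 genes were lower in every setting. The cause of these differences was not tested.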
